A study of Mus musculus with 4 samples.

Results

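The H2 genes are the major histocompatibility complex of the mouse, and they were followed here through every probe whose gene name on the array begins with H2-. The array held 55 such probes for 41 gene names, out of 39429 probes with 30222 gene names. Of the 55 probes, 50 were placed on chromosome 17 and 5 had no position on the array design (mouse build mm9, as all probe positions given here). By name the probes fell into 3 for the classical class I genes H2-K1 and H2-D1 (class Ia), 34 for the class Ib genes of the Q, T and M regions and H2-Bl, 6 for classical class II chains, 7 for the class II accessory chains, and 5 for other H2- names. The last group held H2-K2 with 2 probes, H2-Gs10, whose accession RefSeq now lists as H2-Q4, H2-Ke6, and H2-Ke2, the prefoldin subunit gene Pfdn6. H2-Ke2 and H2-Ke6 lie in the complex but encode no antigen-presenting chain.

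RNA came from lumbar slices (L4 to L5) of the spinal cord of male ICR mice taken 7 days after ligation of part of the right sciatic nerve (PSL), an injury that makes touch painful. Sham+PSL mice had a sham operation on the adrenals and kept their own corticosterone rhythm, whereas ADX+PSL mice were adrenalectomized, which removes that source of glucocorticoid. Each was sampled at zeitgeber time (ZT) 10, when corticosterone peaks, and at ZT22, near its trough, to search for genes that follow the hormone through the day. The 4 conditions had 1 array each, so no value here has a biological replicate and no difference was tested. All 4 conditions carried the nerve injury, and no array of an uninjured mouse was analysed. The number of mice behind each RNA and the side of the cord are not given in the sources used here. ICR is an outbred stock and the H2 genes differ strongly in sequence between mice, while the 60-base probes follow database sequence. Which H2 alleles the mice behind each array carried is not given and was not tested.

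Class I chains pair with beta-2-microglobulin and show peptides from inside the cell to CD8 T cells and NK cells. Class Ia genes are expressed by most cells, and several class Ib genes have narrower expression or present particular ligands. Class II chains pair with each other, show peptides from engulfed material to CD4 T cells, and are made mainly by B cells, dendritic cells and macrophages. In the spinal cord, neurons and resting glia have little MHC, microglia gain it after nerve injury, and macrophages of the meninges and vessels carry class II.

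Values are intensities of the deposited table, which puts the 4 arrays on a common scale by quantile normalization. A probe was taken as measured on an array where the scanner software flagged its signal as well above background. The lowest such level was 14.9 at ZT10 and 18.4 at ZT22 with the adrenals (sham+PSL), and 12.8 and 22.2 at these times without them (ADX+PSL). Between 65.1% and 70.1% of all probes passed on each array. Of the H2 probes, 36 (29 genes) passed on at least 1 array, 30 on all 4, and 19 on none. These 19 were all the probes of 12 genes, H2-DMb2, H2-Ea-ps, H2-Eb2, H2-M1, H2-M9, H2-M10.1, H2-M10.2, H2-M10.3, H2-M10.4, H2-M10.6, H2-T3 and H2-T18, and single probes of H2-M2, H2-M5 and H2-Ob. No H2 probe was saturated. A ratio is past 2-fold where the brighter array was well above background. Where only that array was, the dimmer one entered at no less than its lowest level called well above background, and the ratio is given as "at least". The scanner's own error was 10% of the signal for bright probes such as H2-Q5, which gives a log2 ratio an error of 0.20. It covers the spot, not the mice. Different probes differ in brightness for reasons other than abundance, so no level of one gene is set against another.

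The sequences of the probes matter here because class I genes resemble each other closely. The probe of H2-Q7 (chr17:35580315-35580374, plus strand) and a probe of H2-K2 (chr17:34111941-34112000, minus strand) shared 49 of 57 aligned bases. The first 30 aligned bases of both are shown with the 7 differences among them in capitals, followed by the first 30 bases of the H2-D1, H2-K1 and H2-DMb1 probes, on which the results below turn:
H2-Q7: actGagtgacagacGatgtGttcaTGTCtc
H2-K2: actAagtgacagacAatgtCttcaCACAtc
H2-D1: cagttctctttacacaacattgtctgatgt
H2-K1: tgaatgtaaccttgattgttatcatcttga
H2-DMb1: tccttgtcacgagggcaccgtgtcttaggt

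The H2-D1 probe lies at chr17:35403886-35403945 on the plus strand, that of H2-K1 at chr17:34133055-34133114 on the minus strand and that of H2-DMb1 at chr17:34297109-34297168 on the plus strand. Over a local alignment with 2 gap positions, the H2-D1 probe shared 27 of 32 positions with the other H2-K2 probe. The 2 H2-K2 probes themselves overlapped, with 37 of 39 aligned bases the same. Among neighbours, the probe of Gm8909 shared 44 of 51 aligned bases with that of H2-T23. Whether a probe also bound transcripts of another locus was not tested.

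**Figure D1:**
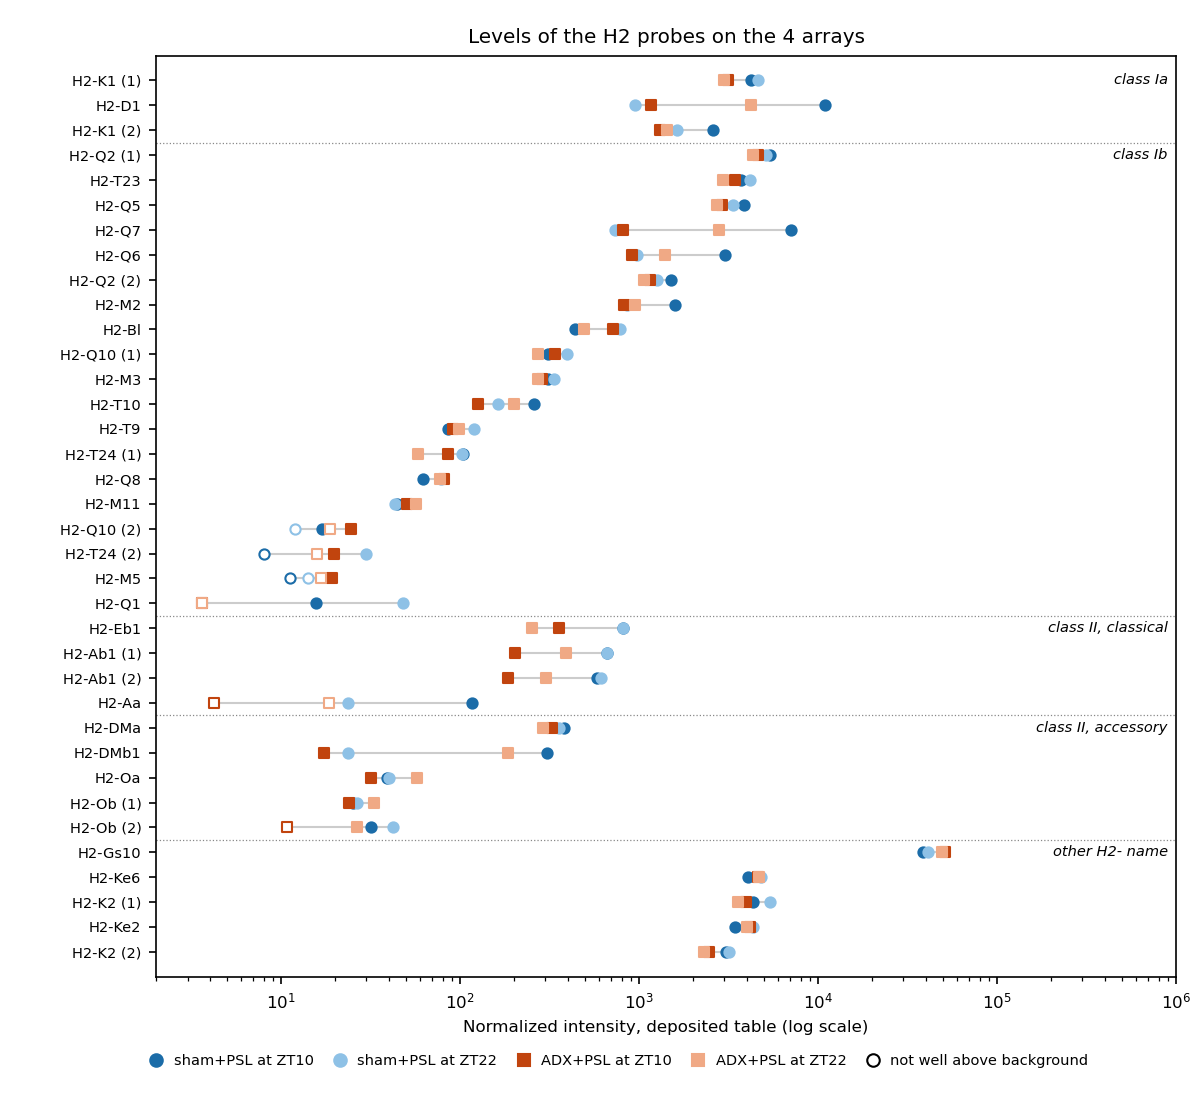
Levels of the 36 H2 probes that passed the background flag somewhere, as normalized intensity on a log axis, with 1 point per array (circles, sham+PSL; squares, ADX+PSL; open symbols, not well above background) and no error bars, since each condition has 1 array. Genes with several probes are numbered by brightness within a class. The points of most probes lie close together, while those of H2-D1, H2-Q7, H2-Q6, H2-DMb1 and H2-Aa spread widely with sham+PSL at ZT10 on the right. Those of the dim H2-Q1 also spread widely, with sham+PSL at ZT22 on the right.

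In sham+PSL mice, the class Ia gene H2-D1 had a level of 10881 at ZT10 and 952.5 at ZT22. In ADX+PSL mice it had 1166 at ZT10 and 4232 at ZT22. The level was thus 11.4-fold higher at ZT10 with the adrenals (log2 ratio 3.51 with a spot error of 0.20) and 3.63-fold lower at ZT10 without them (log2 ratio -1.86 with a spot error of 0.20). Sham+PSL at ZT22 and ADX+PSL at ZT10 were low and close to each other, the ZT22 array of ADX+PSL was intermediate, and the ZT10 array of sham+PSL was the highest.

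H2-K1, the other class Ia gene, did not share this pattern. Its probe with 10 spots on each array read 4246, 4598, 3156 and 2994 with sham+PSL before ADX+PSL and, within each, ZT10 before ZT22. This order is kept below wherever 4 levels are listed. The SD between the 10 spots was 0.041 to 0.051 on the log2 scale. A second H2-K1 probe read 2600, 1630, 1316 and 1434, so the 2 probes placed sham+PSL at ZT22 differently. On both probes the 2 ADX+PSL levels were the lower ones, and no H2-K1 ratio was past 2-fold. The largest was 1.98-fold, for ADX+PSL against sham+PSL at ZT10 on the second probe.

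Among class Ib genes, H2-Q7, which encodes a Qa-2 antigen, followed H2-D1 closely. Its levels were 7024, 732.2, 816.4 and 2811, which is 9.59-fold higher at ZT10 in sham+PSL and 3.44-fold lower at ZT10 in ADX+PSL. The similar H2-K2 probe read 3073, 3174, 2470 and 2314 and showed no such pattern. H2-Q6, the next gene of the Q region, read 3021, 970.4, 915.2 and 1402. Its ratio was 3.11 in sham+PSL, while in ADX+PSL the ZT10 level was 1.53-fold lower and not past 2-fold. A second probe, filed under the transcript ENSMUST00000113877 and described there as H2-Q6, read 3628, 1233, 1132 and 1788, but 54 of its bases are the same stretch and it is no separate evidence.

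Apart from the dim H2-Q1, the remaining class Ib genes of the Q region varied less. The 2 H2-Q2 probes read 1502, 1255, 1153 and 1066 and 5359, 5116, 4606 and 4344, and H2-Q5 read 3863, 3353, 2908 and 2731. The 4 arrays had the same order on all 3 of these probes, from ZT10 of sham+PSL down to ZT22 of ADX+PSL, and the largest ratio was 1.41. H2-Q1 was dim, at 15.7 and 47.8 in sham+PSL and, not well above background, 3.61 on both ADX+PSL arrays. Its sham+PSL level was 3.05-fold lower at ZT10, and it was at least 2.15-fold lower in ADX+PSL than in sham+PSL at ZT22. H2-Q8 and H2-Q10 had no ratio past 2-fold.

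In the T region, H2-T23, the mouse Qa-1 gene, whose product presents leader peptides of other class I chains to NK cell receptors, read 3693, 4193, 3428 and 2949. H2-T10 read 258.5, 162.2, 125.2 and 200.3 and was 2.06-fold lower in ADX+PSL than in sham+PSL at ZT10. Its order of arrays was that of H2-D1 apart from the low pair, with ratios of 1.59 in sham+PSL and 1.60 the other way in ADX+PSL, neither past 2-fold. One H2-T24 probe read 103.2, 102.9, 85.5 and 58.5. The other read 8.02, 29.9, 19.7 and 15.9, with only the middle pair well above background, which made its sham+PSL level at least 2.01-fold lower at ZT10. H2-T9, at 85.1, 119.7, 91.5 and 98.6, had no ratio past 2-fold. H2-Bl, named for the blastocyst, went the opposite way to H2-D1 at 438.4, 785.3, 718.0 and 491.4, with ratios below 2.

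In the M region, H2-M3, whose product presents formylated peptides of bacteria and mitochondria, read 309.4, 334.9, 286.6 and 273.9. A probe of H2-M2 with 10 spots on each array read 1597, 859.8, 819.7 and 947.2. The SD between its spots was 0.035 to 0.074 (log2), and the sham+PSL ratio was 1.86. Its other probe was never well above background, so the gene rests on 1 probe. H2-M11 lay between 43.2 and 57.0.

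The other H2- names were steady. H2-Gs10 read 38367, 40937, 51106 and 48964, with a largest ratio of 1.33 between 2 arrays. The 2 H2-K2 probes differed by up to 1.5-fold, and H2-Ke2 and H2-Ke6 by up to 1.25-fold.

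Among the classical class II chains, H2-Ab1, the beta chain of I-A, was much lower without the adrenals. One probe read 664.0, 661.1, 202.1 and 391.4, and a second, shifted by 9 bases along the same stretch and so not separate evidence, read 585.4, 611.1, 185.1 and 302.8. In sham+PSL the log2 time ratio was 0.01 on the first and -0.06 on the second. At ZT10 the ADX+PSL level was 3.29-fold lower on the first and 3.16-fold lower on the second, and at ZT22 it was 1.69-fold and 2.02-fold lower. H2-Eb1, the beta chain of I-E, read 816.9, 813.3, 355.8 and 250.9. It was 2.30-fold lower in ADX+PSL at ZT10 and 3.24-fold lower at ZT22, again with a sham+PSL log2 time ratio of 0.01.

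H2-Aa, the alpha chain that pairs with H2-Ab1, read 116.3 and 23.5 in sham+PSL and, missing the background flag, 4.20 and 18.6 in ADX+PSL. With the adrenals its level was 4.94-fold higher at ZT10, a difference that its partner chain did not show. At ZT10 it was at least 9.06-fold lower in ADX+PSL. Both depended on the background. With normexp or with the background left uncorrected, the log2 time ratio of 2.30 in sham+PSL became 0.89 and 0.87, and the log2 ratio of ADX+PSL over sham+PSL at ZT10 of -3.18 became -1.15 and -0.99.

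The accessory chains edit the peptides that class II molecules carry, H2-DMa and H2-DMb1 as a pair that loads peptides and H2-Oa and H2-Ob as a pair that restrains it. H2-DMb1 read 304.2, 23.6, 17.3 and 184.8. It was 12.9-fold higher at ZT10 in sham+PSL (log2 ratio 3.69 with a spot error of 0.31) and 10.68-fold lower at ZT10 in ADX+PSL (log2 ratio -3.42 with a spot error of 0.30). The low pair of arrays lay just above the background and the high pair far from it. Its partner H2-DMa read 381.4, 356.3, 327.3 and 290.0, with a largest ratio of 1.32, and H2-DMb2, a near copy of H2-DMb1, was never well above background. H2-Oa, at 39.2, 40.3, 31.8 and 57.5, had no ratio past 2-fold. Of the 3 H2-Ob probes, 1 was never measured and 1 lay between 23.9 and 33.2. The third read 31.7, 42.2, 10.9 and 26.4, of which 10.9 was not well above background, and was at least 2.48-fold lower in ADX+PSL than in sham+PSL at ZT10 and at least 2.06-fold lower at ZT10 than at ZT22 in ADX+PSL.

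The counts over all members follow, each beside the share of all probes that passed the same rule. For ZT10 against ZT22 in sham+PSL, 7 of 35 H2 probes with at least 1 measured array were past 2-fold, 5 higher and 2 lower, where 3.45% of all 27668 probes were (1.53% higher and 1.92% lower). For the same times in ADX+PSL, 4 of 34 H2 probes were past 2-fold, all lower at ZT10, where 2.72% of all probes were (0.92% higher and 1.8% lower). For ADX+PSL against sham+PSL at ZT10 the count was 10 of 36 (9 genes), all lower in ADX+PSL, beside 3.68% of all probes (1.43% higher and 2.24% lower). At ZT22 it was 6 of 34, with H2-D1, H2-Q7 and H2-DMb1 higher in ADX+PSL and H2-Ab1, H2-Eb1 and H2-Q1 lower, beside 3.12% of all probes (1.44% higher and 1.68% lower). These counts are 20%, 11.8%, 27.8% and 17.6% of the H2 probes that could be judged. The probes are related in sequence and are not independent, and each array enters 2 of the comparisons. At least 1 call of H2-Aa, H2-Ob, H2-Q1, H2-T10 and H2-T24, and that of the second H2-Ab1 probe at ZT22, ended when the background was handled differently, as by normexp or by leaving it uncorrected. A call of H2-Ob, of H2-T24 and of that H2-Ab1 probe also ended with no normalization between arrays, and 1 of H2-Ob with a shift by the 75th percentile.

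H2-D1, H2-Q7 and H2-DMb1 were past 2-fold in opposite directions in the 2 operations, 3 of the 33 H2 probes that could be judged in both, beside 0.194% of all 26753 probes. No H2 probe was past 2-fold in the same direction in both, beside 0.314% of all probes. The sham+PSL log2 time ratio exceeded that of ADX+PSL by 5.37 for H2-D1, 5.05 for H2-Q7 and 7.11 for H2-DMb1, the last of which was 3.48 with the background left uncorrected. By their 4 levels, the ZT10 array of sham+PSL and the ZT22 array of ADX+PSL were high and the remaining pair low. By a rule chosen after the values were seen, both of the first arrays were at least 1.5-fold above both of the others for the same 3 of the 30 H2 probes measured on all arrays and for 0.16% of all 25009 such probes. The rule restates the pattern of these 3 probes and is no separate evidence. Without the 1.5-fold margin, this order held for 6 of the 30 H2 probes (20%), beside 16.6% of all such probes.

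**Figure D2:**
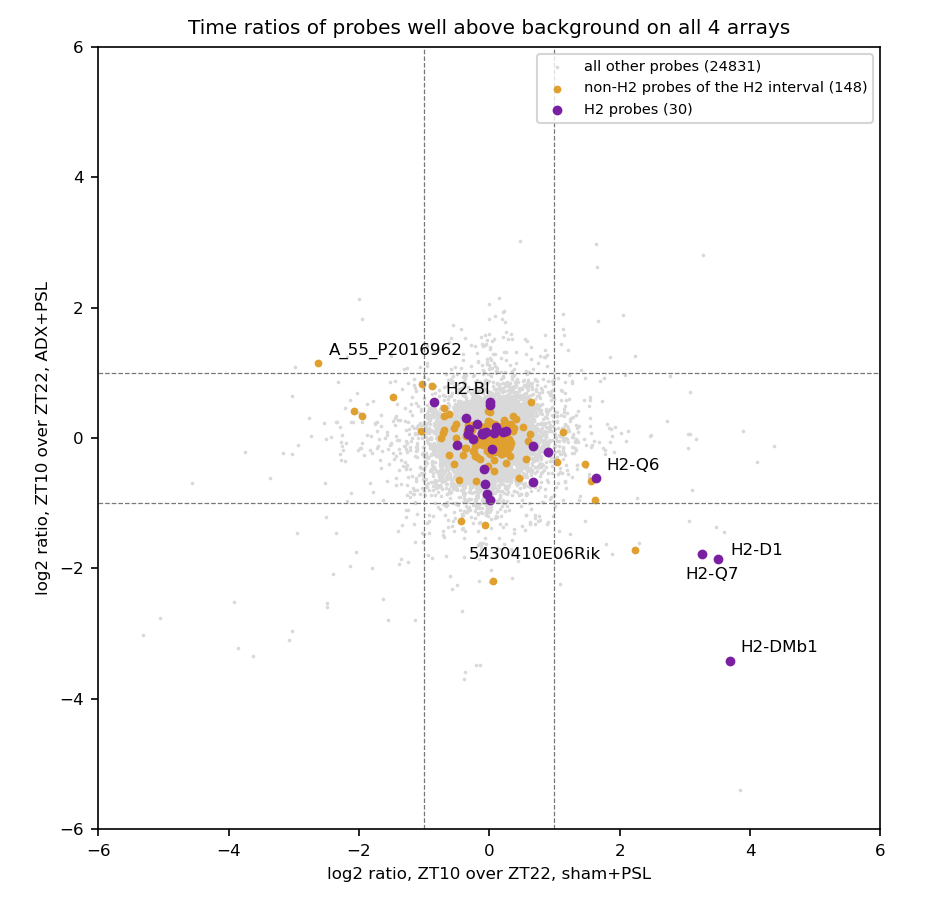
Log2 ratio of ZT10 over ZT22 in sham+PSL (horizontal) against that in ADX+PSL (vertical) for the 25009 probes measured on every array, with dashed lines at 2-fold and 1 array per condition. H2-D1, H2-Q7 and H2-DMb1 lie at the lower right, past 2-fold in opposite directions, and the remaining 27 H2 probes lie within 2-fold in ADX+PSL.

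The promoters of H2-D1, H2-Q7 and H2-DMb1, and of H2-K1 as a class I gene without their pattern, are shown as 250 bases before the start site, from RefSeq on build GRCm38.p6, which is C57BL/6J and not ICR. Their coordinates are not on the build of the probes. H2-K1 has a further annotated start, whose window (chr17:34000334-34000583, minus) also holds a CCAAT after the ATTGG. The H2-K1 window shown ends before that CCAAT. Capitals mark the letters GGGATTCCC, the core of the class I kappa B element, and CCAAT, the Y box of class II promoters, which reads ATTGG on the other strand. The 2 motifs do not overlap each other.
H2-D1 (chr17:35262844-35263093, plus): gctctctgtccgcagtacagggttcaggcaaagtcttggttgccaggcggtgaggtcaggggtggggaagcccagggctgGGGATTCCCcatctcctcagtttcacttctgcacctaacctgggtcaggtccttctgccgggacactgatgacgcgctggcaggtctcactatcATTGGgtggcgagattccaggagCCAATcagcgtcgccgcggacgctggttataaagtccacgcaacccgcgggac
H2-Q7 (chr17:35438905-35439154, plus): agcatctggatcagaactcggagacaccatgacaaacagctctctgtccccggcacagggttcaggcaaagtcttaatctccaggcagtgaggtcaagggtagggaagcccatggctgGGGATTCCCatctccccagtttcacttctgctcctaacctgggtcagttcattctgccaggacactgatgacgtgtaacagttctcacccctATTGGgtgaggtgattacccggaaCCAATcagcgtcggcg
H2-K1 (chr17:34000348-34000597, minus): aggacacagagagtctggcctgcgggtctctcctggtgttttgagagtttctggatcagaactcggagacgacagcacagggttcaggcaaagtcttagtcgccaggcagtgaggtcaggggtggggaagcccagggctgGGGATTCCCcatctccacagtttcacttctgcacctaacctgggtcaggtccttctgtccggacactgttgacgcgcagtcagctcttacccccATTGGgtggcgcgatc
H2-DMb1 (chr17:34152941-34153190, plus): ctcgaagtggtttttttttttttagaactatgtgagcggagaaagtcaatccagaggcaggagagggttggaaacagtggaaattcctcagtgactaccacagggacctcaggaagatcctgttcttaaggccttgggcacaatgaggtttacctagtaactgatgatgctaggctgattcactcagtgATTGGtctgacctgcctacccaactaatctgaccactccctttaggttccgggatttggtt

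Promoters were found for 28 H2 genes (31 sequences of 300 bases, which run from 250 bases before to 50 after the start), and both strands were searched. GGGATTCCC stood in those of H2-D1, H2-K1, H2-Q6 and H2-Q7, and in 0.353% of 32851 promoters of all genes. H2-D1, H2-Q6 and H2-Q7 were past 2-fold between times in sham+PSL and H2-K1 was not, so the element was shared by genes with and without that pattern. CCAAT stood in promoters of 25 of the 28 H2 genes, and in 37.4% of all promoters. GAAANNGAA, a pattern that interferon regulatory factors bind, stood in that of H2-T23 alone among H2 genes, beside 8.56% of all. This order of letters was the only form searched for these factors. The windows of H2-D1, H2-Q7 and H2-K1 shown above each hold agtttcacttct, a stretch that the search did not count. The result therefore does not show that class I promoters lack sites for these factors. AGAACA, one arm of the palindromic glucocorticoid response element, stood in those of 6 of the 28 H2 genes, H2-DMb1, H2-DMb2, H2-M10.6, H2-M3, H2-Ob and H2-T23, beside 19% of all. It was not in the windows of H2-D1, H2-Q7 or H2-K1.

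The H2 probes spanned 3.54 Mb of chromosome 17, and 230 probes without an H2- name (196 gene names) lay among them. Of these, 170 were well above background on at least 1 array and 148 on all 4. In sham+PSL, 16 of 166 neighbours were past 2-fold between the times, beside 3.45% of all probes, and in ADX+PSL 10 of 164, beside 2.72%. For ADX+PSL against sham+PSL the counts were 16 of 165 at ZT10 and 10 of 161 at ZT22, beside 3.68% and 3.12%. Past 2-fold in opposite directions in the 2 operations were 4 of 160 neighbour probes, beside 0.194% of all probes, and none with normexp or with the background left uncorrected.

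Of these 4, both probes of 5430410E06Rik, a transcript of unknown class on the opposite strand just before H2-D1 (chr17:35399221-35399347), had the pattern of H2-D1. One read 185.3, 39.3, 32.0 and 105.7. The other read 164.4, 17.3, 18.7 and 66.6, of which 17.3 was not well above background. The other 2 went the other way and lie next to each other in the T region. The probe for ENSMUST00000025333, described as the blastocyst gene that H2-Bl also names, read 6.49, 342.1, 355.8 and 167.2, of which 6.49 was not well above background. The probe A_55_P2016962, with no gene name, read 30.97, 190.9, 252.7 and 113.4.

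Among the other neighbours measured on all arrays, those with the largest difference between the time ratios of the operations lay on both sides. Like H2-D1, the level was highest in sham+PSL at ZT10 for Gm6571 (170.1, 61.7, 66.6 and 87.4), for the unnamed probe A_55_P2102181 (8579, 2793, 2600 and 5046) and for 1 probe of Atp6v1g2, a vacuolar proton pump subunit of neurons (4983, 2426, 3014 and 3870). The sham+PSL log2 time ratio minus that of ADX+PSL was 1.40 for this Atp6v1g2 probe. For another Atp6v1g2 probe measured on all arrays it was -0.44, so the probes of this gene differed in direction. Among the neighbours of largest difference, others had their lowest level on that array. The level was lowest in sham+PSL at ZT10 for Gm8909 in the T region (302.5, 1272, 1161 and 873.0), for Msh5, a meiosis gene (27.0, 104.9, 85.2 and 67.5), and for Gm10501 (176.3, 360.6, 444.5 and 250.04). The complement gene C2, at 349.8, 642.1, 538.6 and 309.1, and the unnamed probe A_55_P2148046, at 123.5, 342.0, 324.1 and 210.0, were low on the arrays where H2-D1 was high. AI646383 stood out on ADX+PSL at ZT22 alone (132.3, against 26.1 to 28.9 elsewhere).

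**Figure D3:**
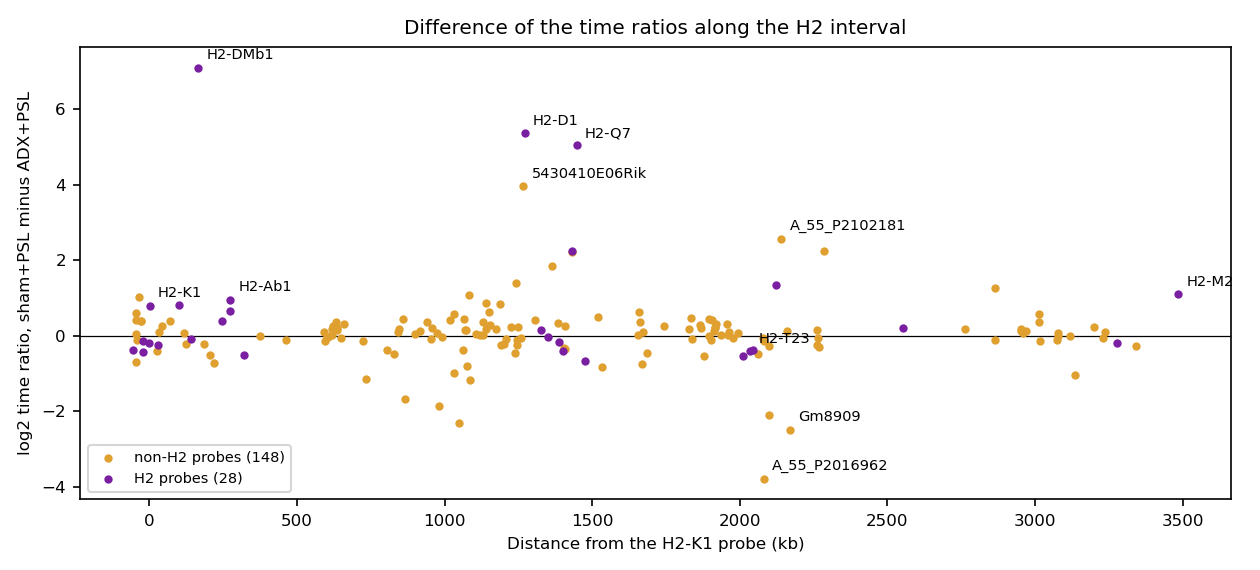
Difference between the log2 time ratios (ZT10 over ZT22) of sham+PSL and ADX+PSL, against the distance from the H2-K1 probe in kb, for the 28 H2 and 148 other probes of the interval measured on all 4 arrays. Positive differences of at least 1 lie around H2-D1 and H2-Q7, differences of both signs lie in the T region near Gm8909, H2-DMb1 stands alone among its neighbours, and the stretch between H2-Q10 and H2-T24 stays near 0.

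Large differences were unevenly spread along the interval. The 2 time ratios differed by at least 1 on the log2 scale for 5 of 15 probes from H2-D1 to H2-Q10 and for 6 of 18 from H2-T24 to H2-M10.2. Between these stretches, none of 29 probes differed so much. From H2-Ke2 to H2-Eb1 the share was 6.67%, in the class III stretch between H2-Eb1 and H2-D1 12.9%, and in the M region 13.6%, while over the whole array it was 3.07%. Nearby probes can share a transcript or a sequence, so these shares are descriptions.

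Genes that act with class I molecules were mostly within 2-fold on the 4 arrays, as most probes of the array were. B2m, the invariant light chain of every class I molecule, read 7211, 10092, 6797 and 7167, and its highest array was not that of H2-D1. Tap1, a subunit of the peptide pump, read 34.7, 38.6 and 19.3 and was not well above background in ADX+PSL at ZT22. Of 17 genes of the class I pathway, none was past 2-fold between the times, beside 3.45% of all probes in sham+PSL and 2.72% in ADX+PSL. Only Nlrc5, the activator of class I transcription, was past 2-fold in any comparison, at 57.2 in sham+PSL and 28.2 in ADX+PSL at ZT22, beside 3.12%. The lowest level called well above background on that ADX+PSL array was 22.2. Counts this low among 17 genes say little about the pathway. The median log2 ratio of ADX+PSL over sham+PSL for the 15 genes measured on all arrays was -0.07 at ZT10 and -0.34 at ZT22, beside 0.00 and 0.01 over all probes. Of 12 interferon response genes, all measured, none was past 2-fold at ZT10, beside 3.68% of all probes, or between times. At ZT22, 1, Usp18, was past it, lower in ADX+PSL, beside 1.68% of all probes. With shares this small, these counts say little about the 12 genes. The median log2 ratio of ADX+PSL over sham+PSL of the 12 was 0.20 at ZT10 and -0.57 at ZT22, where all 12 genes were below 0.

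Of 10 class II pathway genes, Cd74, the invariant chain, read 605.5, 456.6, 197.3 and 218.4. It was 3.07-fold lower in ADX+PSL at ZT10 and 2.09-fold lower at ZT22, beside the lower H2-Ab1 and H2-Eb1. Ciita, the master activator of class II genes, was near background throughout at 29.9, 22.9 and 25.3 and not well above it in ADX+PSL at ZT22. Rfx5, which binds the X box of class II promoters, was the other gene past 2-fold and was higher at ZT10 in both operations, at least 3.04-fold in sham+PSL and 2.55-fold in ADX+PSL.

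Over the 3 classical class II probes measured on all 4 arrays (2 genes), the median log2 ratio of ADX+PSL over sham+PSL was -1.66 at ZT10 and -1.01 at ZT22. Of these probes 2 are the overlapping pair of H2-Ab1, and both medians are the values of the second H2-Ab1 probe. Both ADX+PSL levels lay below both sham+PSL levels for 14 of the 30 H2 probes measured on all arrays, and above them for 2. Over all probes these shares were 16.1% and 18.9%. The median spread between the highest and the lowest of the 4 arrays was 0.56 on the log2 scale for the 30 H2 probes, 0.34 for the neighbours and 0.30 for all probes.

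**Figure D4:**
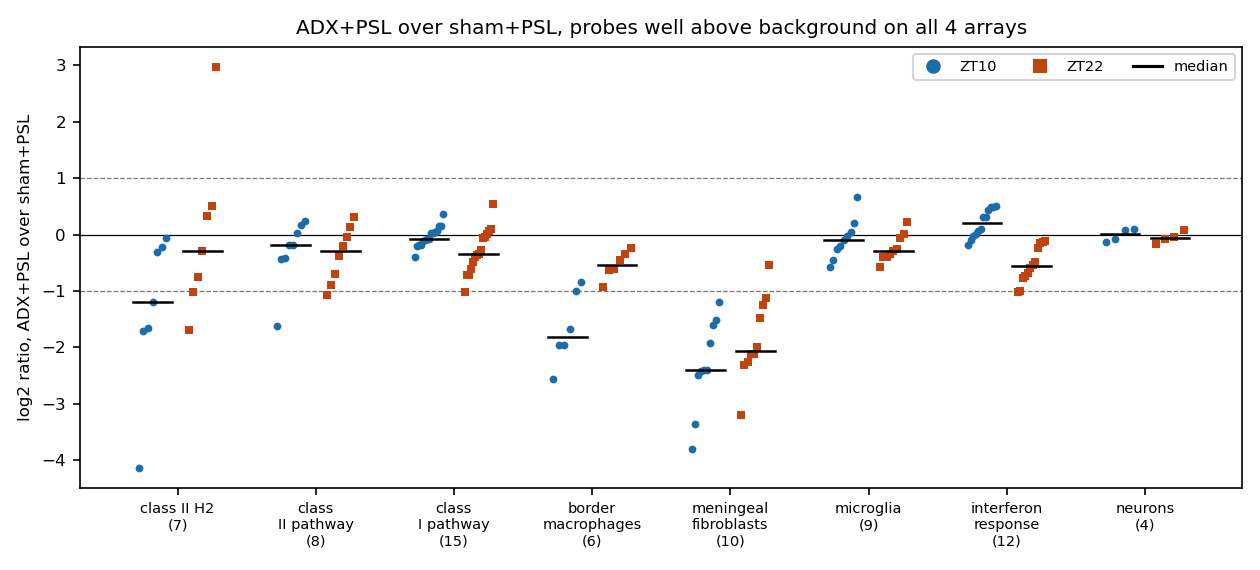
Log2 ratio of ADX+PSL over sham+PSL at ZT10 (circles) and ZT22 (squares) for genes measured on all 4 arrays, by group, with the number of probes in parentheses, the median as a bar and dashed lines at 2-fold. Class II H2 probes, border macrophage markers and meningeal fibroblast markers lie below 0 at ZT10, whereas microglia, interferon response and neuron genes lie on both sides of it. At ZT22 all 12 interferon response genes, all 6 border macrophage markers and all 10 meningeal fibroblast markers lie below 0, as do 4 of the 7 class II H2 probes. Most genes of each remaining group also lie below 0 at ZT22. The border macrophage and meningeal fibroblast groups include genes that the paper selected from these same arrays.

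Markers of border macrophages and of meningeal fibroblasts were, like H2-Ab1 and H2-Eb1, lower in ADX+PSL at ZT10. In tissue RNA, fewer cells of a type and less RNA per cell cannot be told apart. Among 8 markers of macrophages at the borders of the nervous system, 7 were measured. All 6 measured on every array were lower in both ADX+PSL arrays than in both sham+PSL arrays, beside 16.1% of all probes. Their summed level was 1695, 940, 525 and 651. At ZT10, 6 were past 2-fold lower in ADX+PSL, beside 2.24% of all probes, and at ZT22 none was, beside 1.68%. In sham+PSL 3 were past 2-fold higher at ZT10 than at the other time, beside 1.53% of all probes. H2-Ab1 and H2-Eb1 hardly differed between these sham+PSL arrays. Mrc1, the mannose receptor, read 176.8, 112.8, 45.5 and 59.2, and Cbr2 read 452.0, 111.8, 76.9 and 72.8, while Cd163 was never well above background. All 10 markers of meningeal fibroblasts were lower in both ADX+PSL arrays, with a summed level of 20509, 16633, 5599 and 6098. Past 2-fold lower in ADX+PSL were 10 at ZT10 and 9 at ZT22, and 3 were past 2-fold higher at ZT10 in sham+PSL. The paper's candidate list, drawn from these same arrays, holds Cbr2 and the fibroblast markers Mfap4, Mfap5 and Pcolce. Its genes had to fall towards ZT22 with the adrenals, stay level without them, and be lower after adrenalectomy. The direction of these markers was set by that choice and is no separate evidence. The counts and sums were not repeated without them. Of 9 microglial markers, 3 were lower on both ADX+PSL arrays, beside 16.1% of all probes. None of the 9 was past 2-fold, beside 3.68% of all probes between the operations at ZT10 and 3.12% at ZT22. Endothelial markers had a median log2 ratio of ADX+PSL over sham+PSL of -0.12 at ZT10 and 0.22 at ZT22. The part of these cells in the class II values was not tested.

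Lists for other immune cells were measured in part. Of the B cell markers 4 of 6 on the array were measured and Ms4a1 and Pax5 were not, of the dendritic cell markers 3 of 7, without Cd209a, Xcr1, Clec9a and Ccr7, and of the T and NK cell markers 4 of 7, without Cd3g, Cd8a and Klrb1c. For those measured on all arrays, the median log2 ratio of ADX+PSL over sham+PSL at ZT10 was 0.30 for B cells, -0.12 for dendritic cells and 0.10 for T and NK cells. Of the monocyte and granulocyte markers 4 of 6 on the array were measured, without Ccr2 and Ngp. Of these 4, 1 was past 2-fold lower at ZT10 in sham+PSL, the reverse of H2-DMb1, beside 1.92% of all probes. In ADX+PSL 2 were past 2-fold lower at ZT10, beside 1.8%. The 3 markers measured on all arrays had a summed level of 680, 405, 279 and 527, the same order of arrays as H2-DMb1. Their median log2 ratio of ADX+PSL over sham+PSL was -1.65 at ZT10 and 0.51 at ZT22, and S100a9, a calgranulin of neutrophils, read 393.8, 213.4, 122.1 and 303.2. The part of these cells in the H2-DMb1 values was not tested.

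Erythroid genes marked one array out. Their summed level was 135912, 18767, 95075 and 89810, so sham+PSL at ZT22, against which the sham+PSL time ratios were taken, held the least. That array was also the lowest for H2-D1 and H2-Q7. For H2-DMb1 the lowest was ADX+PSL at ZT10. The part of blood in these ratios was not tested. All 4 markers each of neurons, oligodendrocytes and astrocytes were measured on every array, and the 4 neuronal markers had a median log2 ratio of ADX+PSL over sham+PSL of 0.00 at ZT10 and -0.06 at ZT22.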

How the data were processed

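RNA of 4 conditions was hybridised to 4 one-colour Agilent whole mouse genome arrays (60-base probes), 1 array per condition. The authors scanned them with Agilent Feature Extraction (9.5.1.1 in the submitters' notes, 10.7.1.1 in the file headers) and deposited scanner intensity files and a table of intensity values on a linear scale. The 4 columns of that table have identical quantiles, so its values are quantile-normalized. Levels were taken from this table, background flags and spot errors from the scanner files, with a probe counted as well above background where a share above 0.5 of its spots were. Coordinates are those of the array files (mm9), and promoters come from RefSeq (GRCm38.p6). Of the 55 H2 probes, 44 had an accession that matched RefSeq.

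With 1 array per condition no test was made. An additive model of operation and time would leave 1 residual degree of freedom and was not fitted. Calls are ratios of at least 2 with the brighter array well above background. Precision is limited by having 1 array for each condition. Every H2 gene past 2-fold was named with its 4 levels, as were neighbours past 2-fold in opposite directions and the 10 others with the largest difference. Pathway genes and markers were read on their brightest probe. The members and lists were chosen with earlier results of these data known. The call rule was run on simulated arrays in which 200 probes were raised or lowered. The simulation held scanner spot error and no variation between mice, so it checks the code alone. Alternatives were other normalizations and background corrections (normexp with an offset of 50, limma 3.58.1, R 4.3.3), other filters and thresholds (a ratio of 1.5, a Z-score of 2), removal of outlier spots and 1 probe per gene. Motifs and alignments were computed with Python 3.11.15 and Biopython 1.88.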

Additional observations from a re-analysis of the deposited data

Results flagged for a closer look

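The direction of the ZT10 against ZT22 ratio was opposite in sham+PSL and ADX+PSL for 7 probes of the H2 interval, each past 2-fold in both operations. The log2 time ratio in sham+PSL minus that in ADX+PSL was 7.11 for H2-DMb1, 5.37 for H2-D1 and 5.05 for H2-Q7. It was 3.96 and 4.99 for the 2 probes of 5430410E06Rik, -3.78 for the unnamed probe A_55_P2016962 and -5.61 for ENSMUST00000025333. The second 5430410E06Rik value and that of ENSMUST00000025333 are bounds, since 1 of the 4 arrays was not well above background. Each condition has 1 array, and the difference was not tested for any of the 7.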

How the results depend on the processing

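The opposite directions of H2-D1, H2-Q7 and H2-DMb1 held under all 5 other normalizations and background corrections, with the difference between the time ratios from 5.21 to 5.57, from 4.81 to 5.24 and from 3.48 to 7.15 on the log2 scale. Of 27 calls of H2 probes past 2-fold, 18 held under all 5. The H2 probes past 2-fold between times in sham+PSL numbered 7, against 4 with normexp background correction, 4 with the mean signal without background correction, 11 with no filter on background and 11 with a ratio of 1.5. A ratio of 1.5 gave 9 H2 probes in place of 4 in ADX+PSL, 12 in place of 6 for ADX+PSL against sham+PSL at ZT22, and 5 in place of 3 in opposite directions. The neighbour probes in opposite directions numbered 4, against 0 with normexp, 0 with the mean signal without background correction, 2 when all 4 arrays had to be well above background, 7 with no filter and 9 with a ratio of 1.5. Normexp adds an offset and the mean signal keeps the background, so both draw the ratios of dim probes toward 1. Under 1 or both of these, calls of H2-Aa, H2-Q1, H2-Ob, H2-T10 and H2-T24 and that of the second H2-Ab1 probe at ZT22 were lost. Calls of H2-Ob, H2-T24 and that H2-Ab1 probe were also lost with no normalization, and 1 of H2-Ob with the 75th percentile shift. The other 54 of 66 counts stayed within 1.5 times, and of the 230 log2 ratios recomputed for the called H2 probes, 34 moved by more than the spot error, and no called ratio changed its sign. No paired analysis was possible because each condition has 1 array, and for the same reason no array could be left out.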
